A study of Chlorocebus sabaeus with 3 samples.

Results

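The classical cadherins and catenins of the vervet monkey ocular surface were read on 3 arrays, 1 of the limbus, 1 of the cornea, and 1 of the conjunctiva. A list of 10 genes was taken by symbol: the cadherins CDH1, CDH2, CDH3, CDH6, CDH11, and CDH13, the protocadherin PCDH9, and the catenins CTNNA1, CTNNB1, and CTNND1. Probe sets annotated to exactly 1 of these symbols were found for 8 of the 10 genes, out of 19775 distinct symbols on the array. They numbered 27, and 12 of them, from all 8 genes, reached a value of at least 100 in some tissue. CDH13 has no probe set named here. The 4 probe sets of CTNND1 also carry the symbol of a read-through transcript with its neighbor TMX2, so neither CDH13 nor CTNND1 has a value below. CDH3, CDH6, and PCDH9 were singled out by the study on these same arrays, so their limbal values are a description and not independent evidence.

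The tissue was that of young vervet monkeys (Chlorocebus sabaeus) in the third or the fourth year of life, with no treatment named, and the 3 tissues came from the same eye. The limbus was a narrow rim of epithelium with the stroma directly beneath it. The cornea was the trephined center, also with stroma, and the conjunctiva included the underlying Tenon tissue. The arrays are human Affymetrix U133 Plus 2.0 arrays, and a value is the RMA intensity of a probe set, that is, of a group of short probes for 1 transcript. Because the probes follow human sequence, a value is compared only with the same probe set in another tissue. No array was repeated, so the spread between replicates is unknown and no difference was tested.

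Classical cadherins are calcium-dependent adhesion proteins of the adherens junction. Their outer domains bind cadherins of the neighboring cell, and their cytoplasmic tails hold p120-catenin (CTNND1) and beta-catenin (CTNNB1). Alpha-catenin (CTNNA1) links beta-catenin to the actin cytoskeleton. Beta-catenin also acts in the nucleus as the effector of Wnt signaling. E-cadherin (CDH1) is the main cadherin of epithelia, whereas P-cadherin (CDH3) is typical of the basal layers of stratified epithelia. Protocadherins lack the catenin-binding tail of the classical cadherins.

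The arrays were close in distribution, with a median over all probe sets of 49.0 in limbus, 48.8 in cornea, and 50.7 in conjunctiva. The hybridization controls, bacterial and phage transcripts added before hybridization, averaged 1836 in limbus, 3149 in cornea, and 2687 in conjunctiva. Dividing each array by them moves the median log2 ratio over all probe sets by 0.78 for the limbus over the cornea and by 0.55 for the limbus over the conjunctiva. Ratios below are those of the deposited values unless that scaling is named. For GAPDH, the 3′ control signal over the 5′ one was 3.12 in limbus, 4.58 in cornea, and 3.83 in conjunctiva. For ACTB it ran otherwise, with 11.8 in limbus, 11.2 in cornea, and 10.3 in conjunctiva, and the part of these ratios in the values below was not tested. All 4 corneal epithelial markers (KRT12, KRT3, ALDH3A1, TKT) were highest in the cornea, KRT3 only without division by the hybridization controls, and the goblet cell mucin MUC5AC was highest in the conjunctiva. The conjunctival keratins were split. KRT13 had 5797 in limbus, 303 in cornea, and 1950 in conjunctiva, and KRT4 was also highest in the limbus. KRT19, with 2291 in limbus, 739 in cornea, and 4272 in conjunctiva, and KRT7 were highest in the conjunctiva.

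The cadherins differed in the tissue in which they were highest. On the brightest probe set of each gene, that is, the one with the highest mean log2 value, CDH3, CDH6, CDH11, and PCDH9 were highest in the limbus. CDH1, CDH2, and CTNNA1 were highest in the cornea, and CTNNB1 was highest in the conjunctiva. Over all 19775 named genes the limbus was highest for 4927, the cornea for 7592, and the conjunctiva for 7256. The cornea was the lowest tissue for 4 of the 8 genes, the conjunctiva for 3, and the limbus for CTNNA1 only. The lowest tissue was not counted over all genes.

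**Figure D1:**
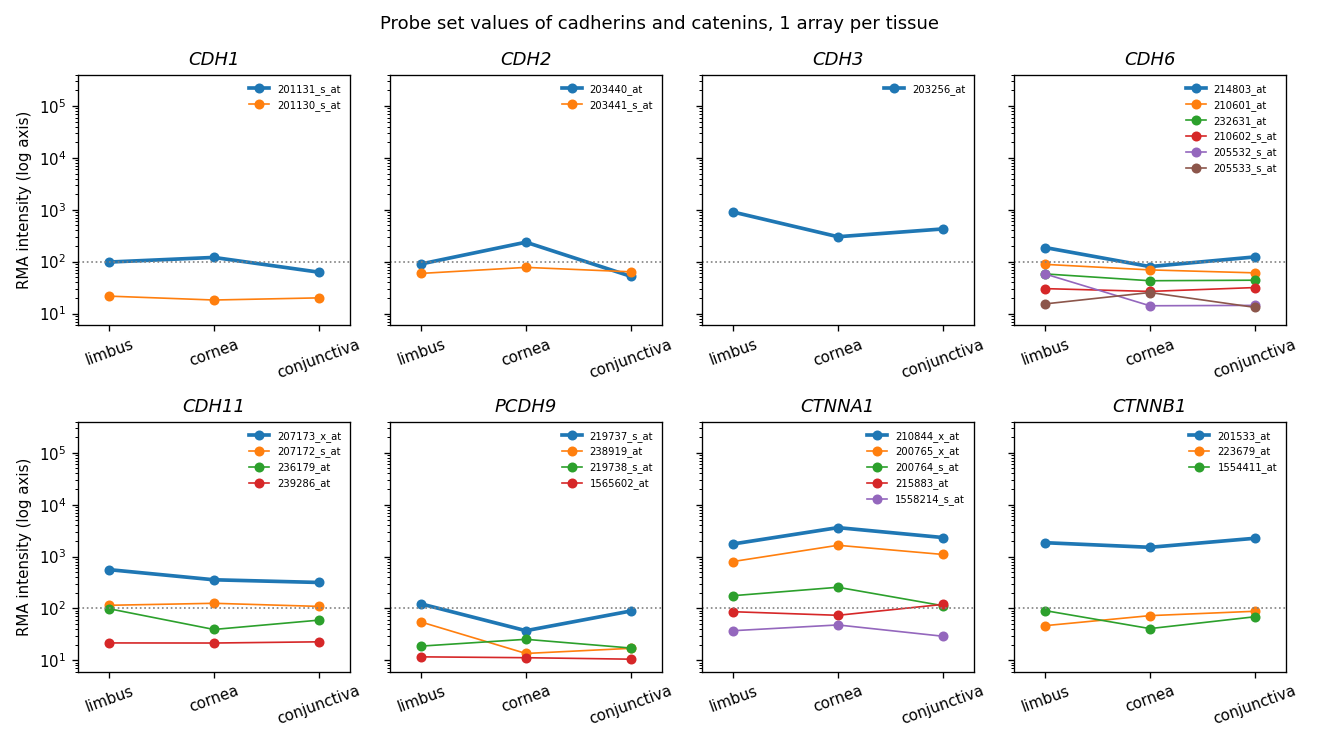
RMA intensity (log axis) of every named probe set of the 8 genes in each tissue, from 1 array each; lines join the values of a probe set, the thick line is the brightest probe set, and the dotted line marks 100. CDH3 lies above 100 in each tissue and is highest in the limbus, whereas the brightest CDH2 probe set peaks in the cornea.

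The rule of the study counted a probe set for the tissue whose value exceeded both of the others at least 2-fold. The limbus was counted for 3 of the 27 probe sets, 1 each of CDH3, CDH6, and PCDH9, where the share over all 41097 probe sets with a single symbol was 0.416%. The cornea was counted for 1, of CDH2 (1.55% over all), and the conjunctiva for 0 (1.22% over all). Among the 12 probe sets that reached 100, the limbus was counted for CDH3 (0.654% of 16811 such probe sets), the cornea for CDH2 (3.09%), and the conjunctiva for none (2.41%). The CDH6 and PCDH9 probe sets counted for the limbus stayed under 100. With array values divided by the hybridization controls, the limbus was counted for 8 member probe sets and the cornea for 0. With 32 added to each value, CDH3 remained the only member counted for the limbus and CDH2 for the cornea, and the CDH6 and PCDH9 probe sets missed the rule. Division by the hybridization controls raises the limbus over all probe sets as well. No share over all probe sets was taken with either change, so these counts cannot be set against the shares above.

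Taken in pairs, the limbus and the cornea were at least 2-fold apart for 10 of the 27 probe sets, and the share over all named probe sets was 5.38%. The limbus was the higher tissue in 7 of these and the cornea in 3. For the limbus and the conjunctiva the count was 3 (4.00% over all), with the limbus higher in each. For the cornea and the conjunctiva it was also 3 (8.92% over all). With 32 added to each value these counts were 5 for the limbus and the cornea, 1 for the limbus and the conjunctiva, and 1 for the cornea and the conjunctiva. With the hybridization controls, 11 were apart for the limbus and the conjunctiva. The shares over all named probe sets were not taken with these changes either. Restricted to values of at least 100, the counts were 6 of 12 for the limbus and the cornea (9.76% over all such probe sets), 1 of 12 for the limbus and the conjunctiva (7.10%), and 3 of 12 for the cornea and the conjunctiva (16.7%). The 6 came from 5 genes, since the 2 brightest CTNNA1 probe sets were both among them. These counts are descriptions, because probe sets of a gene are not independent and 3 of the genes were selected on these arrays.

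**Figure D2:**
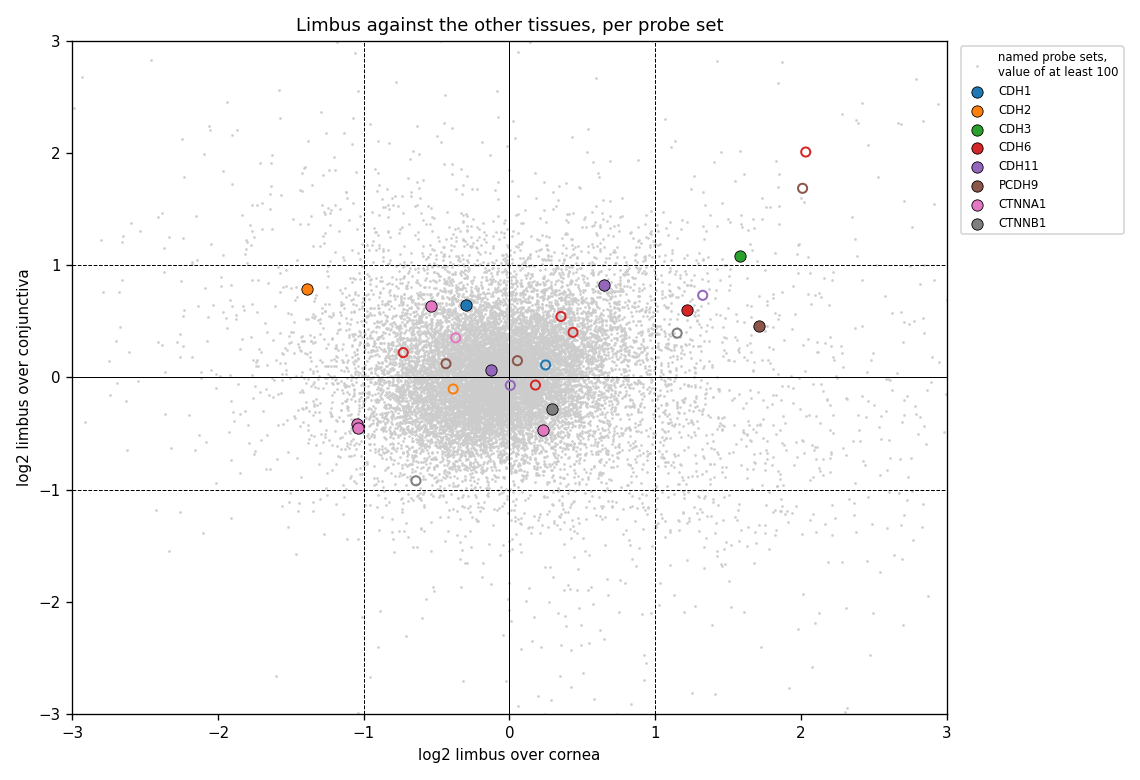
log2 ratio of the limbus over the cornea (x axis) and of the limbus over the conjunctiva (y axis) for the 27 member probe sets, filled where a value reached 100 and open otherwise, over 16811 named probe sets in gray; dashed lines mark 2-fold, and 112 gray points lie beyond the axes. CDH3 is the only filled point past 2-fold on both axes, and CDH2 and 2 CTNNA1 probe sets lie past 2-fold on the side of the cornea.

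CDH3 encodes P-cadherin. Its single probe set (203256_at) had a value of 904 in limbus, 302 in cornea, and 427 in conjunctiva. The limbus thus exceeded the cornea 2.99-fold and the conjunctiva 2.12-fold, and the cornea was at 0.708 of the conjunctiva. The ratio of the limbus to the cornea was higher than that of 97.4% of the 16811 named probe sets that reached 100, and the ratio of the limbus to the conjunctiva was higher than that of 96.8%. CDH3 passed the rule of the study for the limbus under each scaling of the arrays and with 32 added to each value, although in the last case the limbus was only 2.04-fold above the conjunctiva.

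CDH1 encodes E-cadherin. Its brighter probe set (201131_s_at) had a value of 98.2 in limbus, 121 in cornea, and 62.8 in conjunctiva. Relative to the conjunctiva, the cornea was 1.92-fold higher and the limbus 1.57-fold higher. The limbus was at 0.814 of the cornea with the deposited values but 1.40-fold above it with division by the hybridization controls, so the order of these tissues was not settled. The other CDH1 probe set (201130_s_at) lay between 18.2 and 21.6 in the 3 tissues, under the lower quartile of each array. These values carry no order.

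Dividing an array by a constant leaves the ratio of CDH3 to CDH1 within it as it is. The log2 ratio of the limbus to the cornea was 1.88 higher for CDH3 than for CDH1, or 3.67-fold. For the limbus and the conjunctiva the log2 difference was 0.44, or 1.35-fold. The ratio of P-cadherin to E-cadherin signal was therefore highest in the limbus, next in the conjunctiva, and lowest in the cornea. In the vervet annotation (mChlSab1.0.hap1) CDH3 and CDH1 are adjacent genes, and CDH11 and CDH13 lie on the same chromosome.

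CDH2 encodes N-cadherin, known from neural and mesenchymal cells and from melanocytes. Its brighter probe set (203440_at) had a value of 90.3 in limbus, 237 in cornea, and 52.3 in conjunctiva. The cornea exceeded the conjunctiva 4.53-fold and the limbus 2.63-fold, and the limbus exceeded the conjunctiva 1.73-fold. The limbus was at 0.381 of the cornea, a ratio under which only 1.53% of the named probe sets that reached 100 lay. With division by the hybridization controls it was at 0.653 of the cornea, no longer past 2-fold. The other CDH2 probe set (203441_s_at) had a value of 59.3 in limbus, 77.5 in cornea, and 63.7 in conjunctiva. Both probe sets were thus highest in the cornea, with different ratios, and for the second the limbus was highest with the hybridization controls.

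CDH6 encodes K-cadherin, a type II cadherin first described in kidney. Of its 6 probe sets, 4 were highest in limbus, 1 in cornea, and 1 in conjunctiva. The brightest (214803_at) had a value of 187 in limbus, 80.3 in cornea, and 123 in conjunctiva. The limbus exceeded the cornea 2.32-fold and the conjunctiva 1.52-fold. On the probe set counted for the limbus (205532_s_at), the values were 57.7 in limbus, 14.1 in cornea, and 14.4 in conjunctiva, a 4.09-fold and a 4.02-fold difference. The values in the cornea and the conjunctiva lie under the lower quartile of all probe sets, 23.8 in the cornea and 24.5 in the conjunctiva, so the ratio rests on dim signals. Another 2 probe sets (210601_at and 232631_at) were highest in the limbus by 1.28-fold and 1.32-fold over the next tissue. On 205533_s_at the order was turned, with 15.3 in limbus, 25.4 in cornea, and 13.2 in conjunctiva. These values lie under or near the lower quartile of their arrays, so they carry little order.

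CDH11 encodes OB-cadherin, a type II cadherin of mesenchymal cells. Its brightest probe set (207173_x_at) had a value of 559 in limbus, 357 in cornea, and 317 in conjunctiva. The limbus exceeded the cornea 1.57-fold and the conjunctiva 1.76-fold, and the cornea and the conjunctiva changed order with division by the hybridization controls. The letter x in the name marks a probe set with probes that can also match other transcripts. The next probe set (207172_s_at) was nearly level, with 115 in limbus, 126 in cornea, and 110 in conjunctiva. On 236179_at, the values were 98.6 in limbus, 39.3 in cornea, and 59.4 in conjunctiva. The remaining one lay between 21.5 and 22.7 in each tissue.

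PCDH9 encodes a protocadherin, best known from the nervous system. Its brightest probe set (219737_s_at) had a value of 122 in limbus, 37.3 in cornea, and 89.1 in conjunctiva. The limbus exceeded the cornea 3.28-fold and the conjunctiva 1.37-fold. It was the only member probe set at least 2-fold lower in 1 tissue, the cornea, than in both others. Of the 16811 named probe sets bright enough for the CDH3 comparison, 4.22% had the cornea this low. With 32 added to each value, the limbus was 2.23-fold above the cornea. The cornea was then at 0.572 of the conjunctiva, which is less than 2-fold lower, so the probe set no longer stood apart. On the probe set counted for the limbus (238919_at), the values were 54.7 in limbus, 13.6 in cornea, and 17.0 in conjunctiva. The other 2 probe sets stayed at or under 25.4 in every tissue, and on 1 of them the cornea was the highest. On the counted probe set the cornea and the conjunctiva lay under the lower quartile of their arrays, so their order is not settled there.

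On its brightest probe set neither catenin was highest in the limbus with the deposited values. On the brightest CTNNA1 probe set (210844_x_at) the values were 1752 in limbus, 3614 in cornea, and 2331 in conjunctiva. The second (200765_x_at) gave 803 in limbus, 1651 in cornea, and 1099 in conjunctiva, nearly the same ratios, and the names of both carry the x of probes that can match other transcripts. The limbus was at 0.485 of the cornea on the first and at 0.486 on the second, and with division by the hybridization controls the first was at 0.831 and the second at 0.834. Quantile normalization also ended the 2-fold difference, with the limbus at 0.602 of the cornea on the first and at 0.564 on the second. On 200764_s_at, the value was 176 in limbus, 256 in cornea, and 113 in conjunctiva. The cornea was highest on each of these 3 with the deposited values, although on 200764_s_at the limbus was highest with the hybridization controls. The order of the limbus and the conjunctiva differed between the probe sets and, for the brightest, also turned with that scaling. The exception among values of at least 100 was 215883_at, with 86.5 in limbus, 73.7 in cornea, and 119 in conjunctiva.

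On its brightest probe set (201533_at) CTNNB1 had 1851 in limbus, 1508 in cornea, and 2251 in conjunctiva. The highest tissue exceeded the lowest 1.49-fold with the deposited values and 2.10-fold with the hybridization controls. The limbus was at 0.822 of the conjunctiva with the deposited values and above it with the hybridization controls, by 0.27 on the log2 scale. Its other 2 probe sets stayed under 100 and disagreed, since 223679_at had 46.6 in limbus, 72.7 in cornea, and 88.2 in conjunctiva, whereas 1554411_at had 90.8 in limbus, 40.9 in cornea, and 69.0 in conjunctiva. The limbus was thus lowest on the first and highest on the second. The ratio of CDH3 to CTNNB1 in the limbus exceeded that in the cornea 2.44-fold and that in the conjunctiva 2.58-fold. Dividing an array by a constant does not alter these contrasts, which are descriptions because CDH3 was selected for its limbal value on these arrays.

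**Figure D3:**
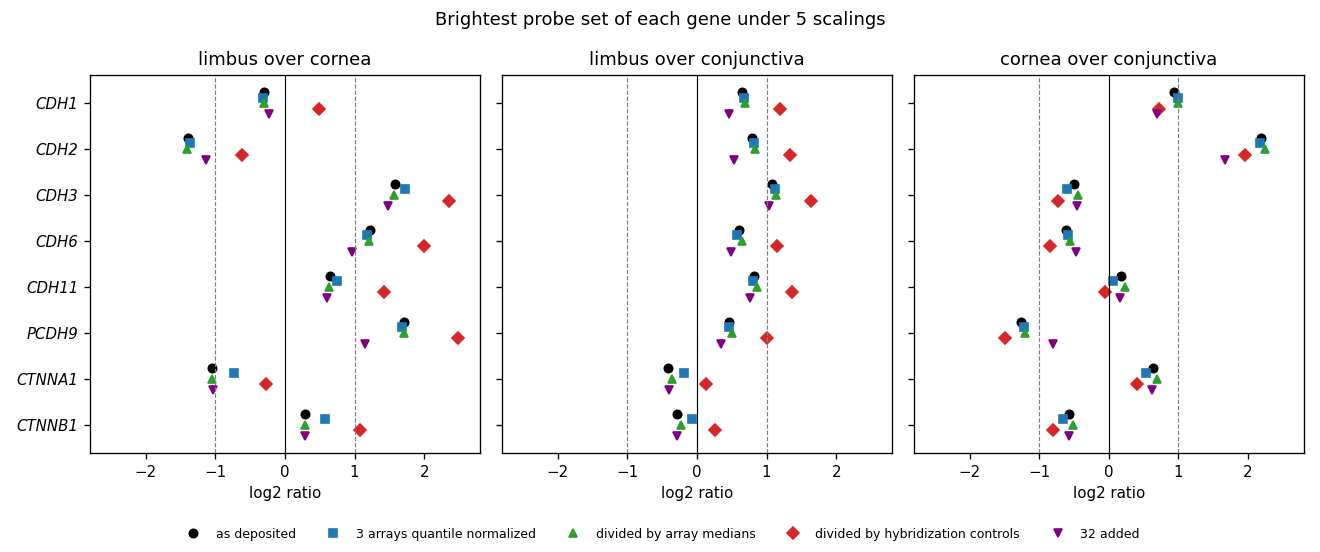
log2 ratios of the brightest probe set of each gene for the limbus over the cornea, the limbus over the conjunctiva, and the cornea over the conjunctiva, as deposited and under 4 other scalings of the 3 arrays; dashed lines mark 2-fold. The ratio of the limbus to the cornea keeps its side of 0 throughout for every gene except CDH1, which crosses 0 with the hybridization controls. The CTNNA1 and CTNNB1 ratios of the limbus to the conjunctiva also cross 0 with these controls, as does the CDH11 ratio of the cornea to the conjunctiva.

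A shift was taken for each gene as its log2 value in a tissue less the average log2 value in the remaining tissues. Over the 8 genes the median shift was 0.45 in limbus, -0.34 in cornea, and -0.20 in conjunctiva. Over all 19775 named genes it was -0.04 in limbus, 0.02 in cornea, and 0.01 in conjunctiva. With division by the hybridization controls the median in the limbus was 1.12 over the 8 genes and 0.62 over all named genes, and with 32 added to each value it was 0.40 over the 8 genes and -0.03 over all named genes. Of the 8 genes, CDH2 and CTNNA1 were below the mean of the other tissues in the limbus. CDH3, CDH6, and PCDH9 were selected for high limbal values on these same arrays. The limbal median over the 8 genes is therefore not independent of that selection and shows no trait of the family.

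Markers of other cell types ran in the same tissue order as several of these genes, and their part in the values was not tested. In such tissue samples, fewer cells of a type and less RNA per cell cannot be told apart. All 7 melanocyte genes measured were highest in the limbus, with a summed level of 2101 in limbus, 600 in cornea, and 986 in conjunctiva. The sum ran in the order of CDH3, CDH6, and PCDH9, although OCA2 was lower in the conjunctiva than in the cornea. Each sum here adds the brightest probe sets of different genes, so the brighter ones weigh most in it. The 3 basal epithelial keratins summed to 13868 in limbus, 7499 in cornea, and 12334 in conjunctiva. Of these, KRT14 had a value of 4580 in limbus, 53.1 in cornea, and 5521 in conjunctiva, whereas KRT5 had 6129 in limbus, 7264 in cornea, and 3293 in conjunctiva. The 6 conjunctival epithelial genes summed to 10589 in limbus, 1486 in cornea, and 9397 in conjunctiva. Both epithelial sums thus also ran in the order of CDH3, CDH6, and PCDH9, but most of their genes did not. None of the 3 basal keratins ran in that order, since KRT14 and KRT15 were highest in the conjunctiva and KRT5 in the cornea. Of the conjunctival list, only KRT13 and KRT4 ran in it on their brightest probe sets. The 5 vascular endothelial genes were each lowest in the cornea, and their sum was 1253 in limbus, 380 in cornea, and 1984 in conjunctiva. For CDH2, and for CDH1 with the deposited values, the corneal epithelial list ran in the same order, with a sum of 8246 in limbus, 26437 in cornea, and 2071 in conjunctiva. Keratocan (KERA), a proteoglycan of keratocytes, had 85.3 in limbus, 312 in cornea, and 18.5 in conjunctiva, also in the order of CDH2 and CDH1. The whole list of 8 keratocyte and fibroblast genes did not run in that order and summed to 12961 in limbus, 15183 in cornea, and 22081 in conjunctiva. The 3 Schwann cell genes measured summed to 174 in limbus, 143 in cornea, and 195 in conjunctiva, and none was counted for a tissue. The 3 smooth muscle genes summed to 698 in limbus, 330 in cornea, and 2748 in conjunctiva. The 2 leukocyte genes measured summed to 239 in limbus, 116 in cornea, and 538 in conjunctiva. These 5 smooth muscle and leukocyte genes were each highest in the conjunctiva, where no member was counted. No value of a marker gene was 0 on these arrays, but this does not show that a cell type was present. TYRP1 in the cornea, at 11.7, and KERA in the conjunctiva, at 18.5, lay under the lower quartile of their arrays.

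Of 60 other adhesion genes listed by role, 57 had a probe set with a single symbol and 36 reached 100 on the brightest one. A probe set of at least 100 set 1 tissue at least 2-fold apart from both others in 8 of these 36 genes, where the share over all 11037 genes with such a probe set was 14.5%. The cornea was the low tissue in 5 of them (5.46% over all). LIMA1, an actin-binding protein that associates with alpha-catenin, had a value of 492 in limbus, 148 in cornea, and 442 in conjunctiva, and was low in the cornea under each scaling. Its second probe set gave 262 in limbus, 108 in cornea, and 248 in conjunctiva, and missed the rule with 32 added to each value. PCDH7, another protocadherin, was at 1858 in limbus, 128 in cornea, and 1667 in conjunctiva on 228640_at. Its brightest probe set (205534_at), however, was level, with 1282 in limbus, 1339 in cornea, and 1055 in conjunctiva.

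The remaining low-cornea genes were CDH5, PKP4, and ZEB2. CDH5, the cadherin of vascular endothelium, had a value of 152 in limbus, 75.2 in cornea, and 184 in conjunctiva, and after quantile normalization its limbal excess over the cornea was 1.96-fold and missed the rule, as it did with 32 added to each value, at 1.72-fold. PKP4, a plakophilin of the p120-catenin family, passed on 1 dimmer probe set (201929_s_at), with 105 in limbus, 32.9 in cornea, and 101 in conjunctiva, whereas its brightest was at 1059 in limbus, 832 in cornea, and 1280 in conjunctiva. ZEB2, a transcriptional repressor of E-cadherin, was at 140 in limbus, 64.3 in cornea, and 245 in conjunctiva, and with 32 added to each value the limbus was 1.79-fold above the cornea, under the rule.

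The other 3 genes each had a different pattern. NECTIN3, an immunoglobulin-type adhesion protein of adherens junctions, had a value of 118 in limbus, 49.6 in cornea, and 36.9 in conjunctiva. Its second probe set stayed under 100 and ran in the same order. With 32 added to each value the limbus was 1.84-fold above the cornea on the first, under the rule. CTNNBIP1, an inhibitor of the binding of beta-catenin to TCF factors, had a value of 401 in limbus, 1012 in cornea, and 426 in conjunctiva, and with the hybridization controls the cornea exceeded the limbus only 1.47-fold. SNAI2, a repressor of E-cadherin, had a value of 404 in limbus, 376 in cornea, and 143 in conjunctiva. The conjunctiva was thus the low tissue for SNAI2. On the brighter CDH1 probe set the conjunctiva was also lowest, but less than 2-fold below each of the others.

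**Figure D4:**
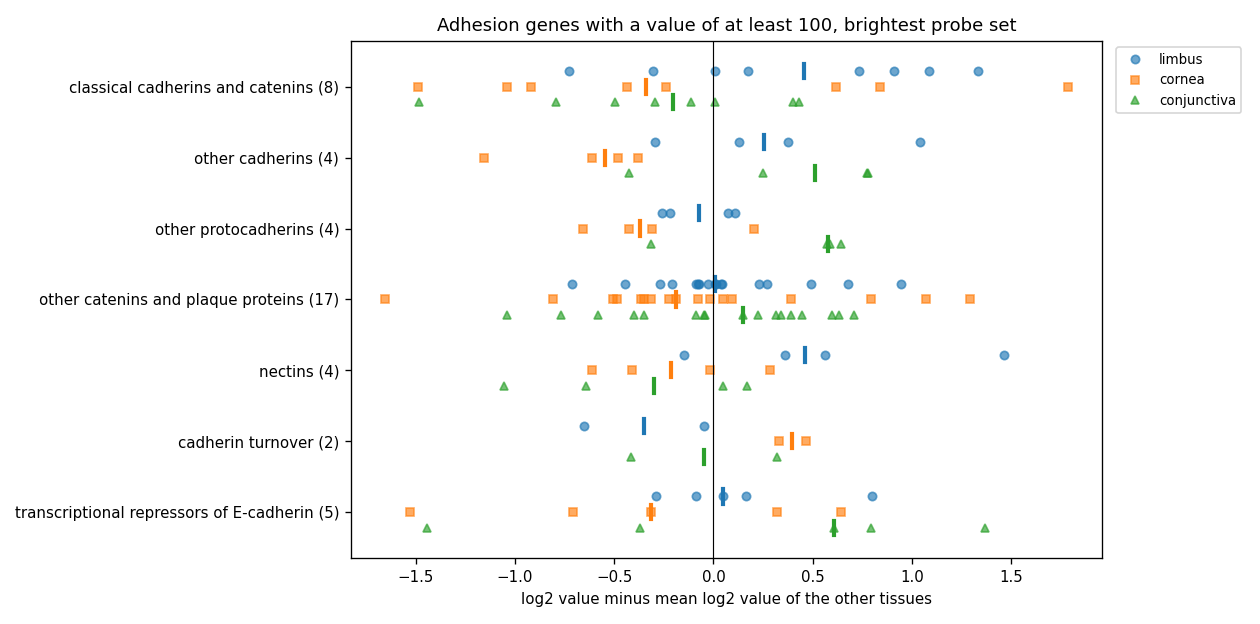
Shift on the log2 scale (x axis) of adhesion genes that reached 100, each read from its brightest probe set, with circles for the limbus, squares for the cornea, and triangles for the conjunctiva; vertical bars are medians and the number of genes stands in parentheses. The limbus median is 0.45 for the classical cadherins and catenins and 0.46 for the 4 nectins, and 0.01 for the 17 other catenins and plaque proteins. The first of these medians includes CDH3, CDH6, and PCDH9, which were selected for high limbal values on these same arrays.

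By group, the limbus was the highest tissue on the brightest probe set for 3 of the 4 nectins, 5 of 17 other catenins and plaque proteins with a value of at least 100, 1 of 4 other cadherins, and 0 of 4 other protocadherins. Over all 16811 named probe sets of at least 100, brightest of their gene or not, the limbus was highest for 24.3%. The cornea was the lowest tissue for each of the 4 other cadherins and for 10 of the 17 plaque genes. The lowest tissue was not counted over all genes. The median in the limbus was 0.25 for the other cadherins and -0.07 for the other protocadherins, against -0.03 over all 11003 named genes of that level. Over all 9 other protocadherins measured the limbal median was -0.17 with the deposited values and 0.49 with the hybridization controls, where that of all named genes was 0.62. Of the genes of cadherin turnover, ADAM10, which sheds E-cadherin and N-cadherin, had a value of 1445 in limbus, 2277 in cornea, and 2269 in conjunctiva. CBLL1, a ubiquitin ligase of E-cadherin, had 406 in limbus, 515 in cornea, and 343 in conjunctiva, and neither was counted for a tissue.

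The genes whose pattern was most like that of CDH3 were sought among 11002 named genes with a value of at least 100, by the Euclidean distance of the 3 centered log2 values. With only 3 arrays many genes lie close. The nearest was DUOXA2 (distance 0.0715), with 313 in limbus, 112 in cornea, and 156 in conjunctiva. ISG15, QPCT, S100A8, and NALF2 came next, up to a distance of 0.153. For CDH1 the nearest were USP12 (distance 0.0102), TPD52L1, SERPINB5, ZNF266, and RPP40. SERPINB5 had a value of 749 in limbus, 930 in cornea, and 473 in conjunctiva.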

How the data were processed

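Limbal, corneal, and conjunctival total RNA was amplified in 2 rounds by the authors and hybridized to human U133 Plus 2.0 arrays, 1 per tissue. The authors deposited RMA intensity values on a linear scale, for which every array went through RMA with the same reference arrays and apart from the other tissues. Version and build are not given in the sources used here. The table held 54675 probe sets, no missing value, and 0 columns of other samples. The platform annotation gave 1 symbol for 41097 probe sets, several for 1801, and none for 11777. Probe sets with several symbols were not named.

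Counts used the rule of at least 2-fold above both other tissues, in Python 3.11.15 with numpy 2.4.6, pandas 2.3.3, and matplotlib 3.10.9. The level was a value of 100 in some tissue, and a gene was represented by its brightest probe set (largest mean of log2 values). The selection was tested on simulated data. Text names all members, all marker genes or their sums, other adhesion genes with a probe set of that level at least 2-fold apart from both other tissues, and the 5 genes nearest to CDH3 and to CDH1. ADAM10 and CBLL1 were named after their values were seen. Alternatives were quantile normalization, division by array medians or by 18 hybridization control probe sets, 32 added to each value, the level of 100 as a filter, a 1.5-fold and a 3-fold rule, and the median over a gene's probe sets. The members and lists were chosen with earlier results of these data known. With 1 array per tissue no test was possible, and precision is limited by the number of arrays. Protein sequences were not used here.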

Additional observations from a re-analysis of the deposited data

How the results depend on the processing

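Of 120 member ratios recomputed under an alternative, 107 moved by less than 1.5-fold, and 13 by more, 8 of these with division by the hybridization controls and 5 with the median over a gene's probe sets. With the deposited values the counts of member probe sets were 3 for the limbus, 1 for the cornea, and 0 for the conjunctiva, and 10, 3, and 3 were 2-fold apart for the limbus and the cornea, the limbus and the conjunctiva, and the cornea and the conjunctiva. With the hybridization controls the counts were 8 for the limbus and 0 for the cornea, and 11 were apart for the limbus and the conjunctiva. With 32 added, the limbus was counted for 1, and 5, 1, and 1 were apart in the same order of pairs. Among values of at least 100 the limbus was counted for 1, and 6 and 1 were apart for the limbus against the cornea and the conjunctiva. At 1.5-fold the limbus was counted for 6 and the cornea for 4, and 10 and 12 were apart for the limbus and the cornea, each against the conjunctiva. At 3-fold the cornea was counted for 0, and 3 and 1 were apart for the cornea against the limbus and the conjunctiva. Except for the filter at 100, no share over all probe sets was taken under these alternatives. The log2 ratio of PCDH9 for the cornea over the conjunctiva was -1.26 on the brightest probe set and 0.19 with the median over its probe sets. The cause was not tested, other than that a filter or a higher fold leaves fewer probe sets. No paired analysis was possible because each tissue had 1 array. With 1 array per tissue the spread between animals and between hybridizations is unknown, and dim probe sets carry little order.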
